A study of Homo sapiens with 18 samples.

Results

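Many human genes carry a name that records where they were first found, in testis or in sperm. The group described here takes 10 such families by symbol: TEX (testis expressed), SPATA (spermatogenesis associated), TDRD (Tudor domain containing), SYCP and SYCE (synaptonemal complex proteins), PIWIL (PIWI-like Argonaute proteins), SPAG (sperm associated antigens), TSSK (testis-specific serine kinases), ODF (outer dense fibre proteins) and CATSPER (subunits of the sperm calcium channel). The rule used symbols alone and no measured value, though it was chosen with earlier results of these data known. It found 95 genes among the 14884 named genes on the array, of which 92 are protein coding and 3 (TEX41, SPATA41 and SPATA42) are long non-coding RNAs. TEX gave 27 of them, SPATA 25, SPAG 11, TDRD 7, CATSPER 6, and SYCP, PIWIL, ODF and TSSK 4 each, with 3 from SYCE.

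The cells were U937, an established line of human monocytic lymphoma cells, and 18 Affymetrix Human Gene 2.0 ST arrays were used. They form 6 groups of 3: control cells, which the labels mark only as ctrl, and cells given decitabine (5-aza-2'-deoxycytidine, a drug that lowers DNA methylation), panobinostat, valproic acid, decitabine plus panobinostat, or decitabine plus valproic acid. Panobinostat and valproic acid block histone deacetylases. The decitabine scheme was 3 pulses of 24 h, and an inhibitor was present for 24 h together with the last of them. Dose numbers of 50 (decitabine), 8 (panobinostat) and 1 (valproic acid) stand in the labels with no unit, so the inhibitors were not compared with each other. All levels are log2 signals of 1 probe set per gene, and n = 3 arrays in every group. The labels do not state whether replicates were grown separately, so p-values measure the spread between these arrays, which may be technical. Array signals have no read depth. Their number limits the precision, and changes of dim probe sets are understated because signals near the background are compressed.

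Several of these families work together in the male germ line. PIWI proteins bind piRNAs, small RNAs that guide the silencing of transposons, and Tudor proteins scaffold and process the PIWI complexes. SYCP and SYCE proteins build the synaptonemal complex, which holds paired chromosomes together during meiosis. ODF, SPAG6 and CATSPER proteins belong to the sperm tail, and the TSSK kinases act after meiosis. In somatic cells the promoters of many early germ line genes are methylated, while other family members have general functions and their names are historical.

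Markers of the labelled line were read in the control arrays. All 8 measured genes of 12 listed monocytic markers had control means above 3.84, the median of all values on the arrays. This level does not tell cell types apart, since only 37.7% of all named genes lay below it. The 2 measured T cell markers, the 1 B cell marker and 4 of 5 testis somatic markers were also above it. The median control level was 7.43 for the monocytic list, 4.06 for T cells, 4.96 for B cells and 4.15 for testis somatic cells. Of the 4 protamine and transition protein genes that mark late germ cells, 1 had a control mean above 3.84, and no comparison called any of them. Arrays of 1 group correlated at 0.985 to 0.992 over all genes. Replicate 1 of decitabine plus valproic acid stood apart from the other 2 arrays of its group on the first principal component (12.04 against 23.9 and 30.6), so member calls that are gained or lost without it are given both ways. The 2 measured T cell markers, CD2 and CD5, had a mean level of 3.91 to 4.24 in control arrays, 5.23 to 5.49 with decitabine plus panobinostat and 5.50 to 5.60 with decitabine plus valproic acid. Both were called in each combination, and their part in the results on the families was not tested. Of 5 measured markers of testis somatic cells 1 was called higher in each combination, and their mean level was 4.11 to 4.27 in control arrays, 4.17 to 4.39 with decitabine plus panobinostat and 4.17 to 4.26 in the other combination.

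Most members were dim in control U937 cells. The control mean lay below the median of all values for 61 of 95 members (64.2%), against 37.7% of all named genes, and 46 members stayed below it in every group. Another 16 members had control means above 5.65, the upper quartile of all values. Among these 16 were SPAG5, SPAG9, TEX2 and TEX261, which are known to be widely expressed, but also PIWIL4 and SPAG6.

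Promoter sequences are given for 4 members with DNA in the RefSeq promoter table (GRCh38.p14), because decitabine lowers methylation at CpG and these genes differ in CpG content and in response. Each is the 250 bases upstream of the annotated start, read 5' to 3' on the gene's strand, with every CpG in capitals. SYCP3 lies on the minus strand at chr12:101739463-101739712, TDRD9 on the plus strand at chr14:103928206-103928455, TEX11 on the minus strand at chrX:70908712-70908961 and SYCP2 on the minus strand at chr20:59933638-59933887.
SYCP3: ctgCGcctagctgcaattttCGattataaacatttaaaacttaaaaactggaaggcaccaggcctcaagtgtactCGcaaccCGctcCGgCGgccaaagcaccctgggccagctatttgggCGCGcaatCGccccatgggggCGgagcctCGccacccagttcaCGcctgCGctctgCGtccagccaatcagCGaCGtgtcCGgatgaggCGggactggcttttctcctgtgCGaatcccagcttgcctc
TDRD9: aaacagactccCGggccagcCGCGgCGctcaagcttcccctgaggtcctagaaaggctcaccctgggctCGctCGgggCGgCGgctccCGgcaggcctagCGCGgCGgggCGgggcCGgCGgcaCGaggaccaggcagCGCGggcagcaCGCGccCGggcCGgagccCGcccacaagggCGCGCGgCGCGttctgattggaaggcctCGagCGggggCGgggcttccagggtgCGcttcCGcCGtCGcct
TEX11: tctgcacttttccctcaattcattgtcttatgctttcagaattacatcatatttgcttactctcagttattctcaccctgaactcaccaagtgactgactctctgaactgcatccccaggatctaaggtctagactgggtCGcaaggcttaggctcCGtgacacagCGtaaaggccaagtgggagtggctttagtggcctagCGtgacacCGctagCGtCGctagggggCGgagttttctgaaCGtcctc
SYCP2: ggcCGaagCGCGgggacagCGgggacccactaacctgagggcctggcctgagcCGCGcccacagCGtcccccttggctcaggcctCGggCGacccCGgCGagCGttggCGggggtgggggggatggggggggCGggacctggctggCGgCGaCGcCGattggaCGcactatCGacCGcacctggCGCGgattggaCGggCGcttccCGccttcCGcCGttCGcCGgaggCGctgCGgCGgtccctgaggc

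SYCP3 has 19 CpG in this window, TDRD9 35, TEX11 9 and SYCP2 33. Over 35116 RefSeq promoters of 27305 genes the median was 11 (quartiles 3 and 23). In 84 promoters of the 70 members in the table the median was 16, with a range of 0 to 43. The first 3 genes rose with decitabine, and SYCP2 was not called there. The letters GCGGGA, a core of E2F-type sites, were searched on both strands. They occur in 23 of the 84 member promoters (27.4%) and in 23.5% of all, among them SYCP3 and SYCP2. CACGTG was found in 9.52% of member promoters and 6.34% of all, and TGACGTCA in 2.38% and 1.65%. A match describes the letters only, and methylation itself was not measured on these arrays.

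Decitabine alone raised a handful of members, most of them dim in control cells, as were 64.2% of all members. A gene is said to be called, rise or fall where the limma test gave a Benjamini-Hochberg adjusted p under 0.05 over all 14884 genes. With decitabine against control 6 members rose (6.32%), against 2.57% of all genes. They were TEX41, TEX11, PIWIL2, SYCP3, TDRD9 and ODF2L. SPAG6 alone fell (1.05%, against 1.39% of all genes). At an unadjusted p under 0.05, limma gave 15 members (15.8%), against 16.5% of all genes, so that cutoff showed no larger share of members. The median change of the 95 members was 0.02 on the log2 scale, against -0.01 for all genes. Leaving out 1 array changed the count of 7 called members more than any other choice. It was 2 without decitabine replicate 1 or either of control replicates 1 and 2, and 3 without control replicate 3 or decitabine replicate 3. TEX41 was called in each of these fits. Shares of all genes called in them are not given, so these counts have no background beside them. Over all 16 alternatives PIWIL2 and TEX11 kept the call in 12, TDRD9 in 11, SYCP3 in 8 and ODF2L in 7.

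In the combinations more members were called, and in both directions. Decitabine plus panobinostat against control raised 9 members (9.47%, against 11.2% of all genes) and lowered 6 (6.32%, against 12%). Decitabine plus valproic acid raised 9 (9.47%, against 8.9%) and lowered 3 (3.16%, against 8.06%). The share that rose was thus near the background in both. Without replicate 1 of the latter group 11 rose (11.6%, against 9.23% of all genes in that fit) and 4 fell (4.21%, against 7.88%). TEX19, TEX30 (0.72, adjusted p = 0.0376) and TEX9 (0.64, adjusted p = 0.0454) were then called higher and PIWIL4 lower, while SPAG9 lost its call. With all arrays TEX30 changed by 0.58 (adjusted p = 0.0696) and TEX9 by 0.49 (adjusted p = 0.11). The 6 genes that rose with decitabine alone also rose in both combinations. These comparisons share the 3 control arrays, and the share of all genes with this overlap was not counted. SPAG9 and TEX13C were called higher in both combinations and in no single treatment, SPAG9 with the loss just given. TEX19 was called with panobinostat as the partner and TEX12 with valproic acid; whether these differ between partners was not tested.

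The inhibitors alone called few members. Panobinostat against control raised SPATA6, SYCE2 and ODF2L and lowered SYCP2 and TDRD3 (3.92% of all genes rose and 3.47% fell). Valproic acid raised ODF2L, SPATA6 and TEX9 and lowered none (4.73% and 2.74% of all genes). At an unadjusted p under 0.05, 8 members (8.42%) differed from control with valproic acid, against 19.7% of all genes. The panobinostat count of 5 was 2 or 3 whichever of its 6 arrays was left out, with SPATA6 called each time. The valproic acid count of 3 was 1 without valproic acid replicate 1 or either of control replicates 1 and 2, with ODF2L called each time. For these fits too the shares of all genes are not given.

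**Figure D1:**
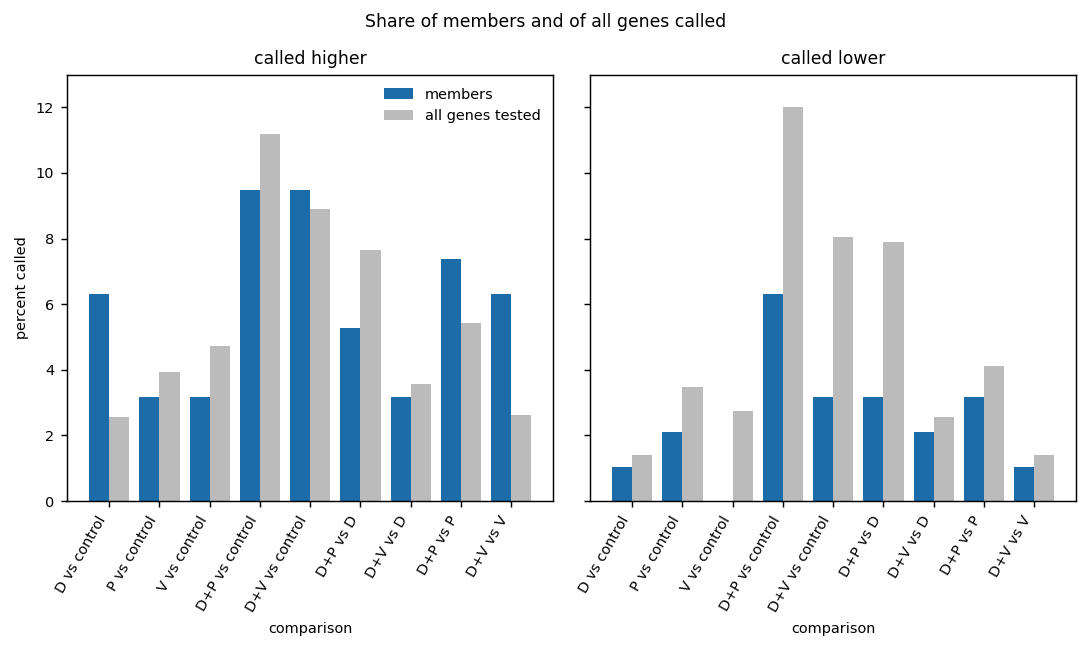
Share of the 95 members (%) called higher or lower in each comparison of 2 groups beside the share of all 14884 genes, limma, adjusted p under 0.05. With decitabine alone 6.32% of members were called higher, against 2.57% of all genes, while decitabine plus panobinostat against control gave 9.47% and 11.2%.

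The long non-coding RNA TEX41 moved most among the members. Its levels were 3.78, 3.92 and 3.60 in the control arrays, 4.87, 5.21 and 5.04 with decitabine, 6.13, 6.23 and 6.78 when panobinostat was combined with it, and 5.60, 5.63 and 6.03 when valproic acid was. Every decitabine array lay above every control array, and the arrays of decitabine plus panobinostat lay above all others. With panobinostat alone the levels were 4.40, 3.94 and 4.01 and with valproic acid alone 3.60, 3.64 and 3.98. The change from control was 1.28 (SE 0.18, adjusted p = 0.000526) with decitabine, 2.61 (adjusted p = 4.74e-08), or 6.12-fold, in its combination with panobinostat and 1.98 (adjusted p = 1.96e-06) in that with valproic acid. Against decitabine alone, adding panobinostat raised it by a further 1.34 (adjusted p = 0.000159). Adding valproic acid raised it by 0.71 (adjusted p = 0.0313), a call kept under 9 of 16 alternatives. In RNA from a whole culture a higher level can come from more expressing cells or from more RNA per cell, and these cannot be told apart.

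Among members of the piRNA pathway, PIWIL2 and TDRD9 rose wherever decitabine was given. PIWIL2, a PIWI protein needed for piRNA production and transposon silencing in the male germ line, read 3.33, 3.59 and 3.29 in control, 4.27, 3.89 and 4.46 with decitabine, 4.85, 4.09 and 3.97 with decitabine plus panobinostat and 4.18, 4.51 and 4.35 in the valproic acid combination. It stayed at 3.08 to 3.44 in the 6 arrays with an inhibitor alone. No array with decitabine overlapped an array without it. The changes from control were 0.80 (SE 0.20, adjusted p = 0.03), 0.90 (adjusted p = 0.00289) and 0.94 (adjusted p = 0.00324). Against the inhibitor alone PIWIL2 rose by 1.07 with panobinostat (adjusted p = 0.0023) and 1.11 with valproic acid (adjusted p = 0.0031) as the partner.

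TDRD9, a Tudor-domain helicase that works with PIWI proteins, was at 3.09, 3.11 and 3.18 in control and at 4.03, 3.61 and 3.55 with decitabine. Its levels were 4.23, 3.63 and 4.12 with decitabine plus panobinostat and 3.96, 3.67 and 3.73 in the valproic acid combination, while the 6 arrays with an inhibitor alone lay between 3.11 and 3.22. Its 9 arrays with decitabine were thus all above its 9 arrays without. It rose by 0.60 (SE 0.15, adjusted p = 0.0307), 0.86 (adjusted p = 0.000401) and 0.66 (adjusted p = 0.00545) in these groups.

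PIWIL4, the PIWI protein that acts in the nucleus to direct DNA methylation of transposons in fetal germ cells, followed another course. It was already well above the median of all values in control, at 7.33, 7.03 and 7.29. It read 7.95, 7.37 and 7.97 with decitabine, 6.32, 6.89 and 5.93 with panobinostat, 6.32, 6.63 and 6.45 with valproic acid, 6.66, 6.54 and 6.44 with decitabine plus panobinostat, and 7.35, 6.48 and 6.30 with decitabine plus valproic acid. The decitabine arrays were highest, and every array with an inhibitor except replicate 1 of decitabine plus valproic acid lay below the control arrays. Relative to decitabine alone, PIWIL4 fell by 1.22 (SE 0.26, adjusted p = 0.00391) when panobinostat was added and by 1.05 (adjusted p = 0.0239) when valproic acid was added. Without replicate 1 of decitabine plus valproic acid the latter change was -1.37 (adjusted p = 0.00219), and the change from control in that group went from -0.51 (adjusted p = 0.215) to -0.82 (adjusted p = 0.0224). Its call for that combination against decitabine was kept in 11 of 16 alternatives, and lost with only the compared groups fitted (adjusted p = 0.121) and with changes of -0.96 without decitabine replicate 1 (adjusted p = 0.086), -0.95 without decitabine replicate 3 (adjusted p = 0.0946), -0.93 without replicate 2 (adjusted p = 0.0999) and -0.84 without replicate 3 (adjusted p = 0.124) of the combination. Against control it changed by 0.54 with decitabine (adjusted p = 0.303), -0.84 with panobinostat (adjusted p = 0.0591) and -0.75 with valproic acid (adjusted p = 0.0952), none of which was called.

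TEX19, which limits retrotransposons in germ cells and early embryos, varied widely between arrays of 1 group. Control arrays read 3.86, 3.54 and 4.54, those of decitabine plus panobinostat 4.60, 5.07 and 5.34, and those of decitabine plus valproic acid 3.77, 5.04 and 4.89. With decitabine alone they read 3.96, 4.23 and 4.41, with panobinostat 3.85, 4.58 and 4.39, and with valproic acid 4.39, 3.94 and 4.40. The 3 arrays of decitabine plus panobinostat were above all control arrays, and the arrays of the other groups overlapped the controls. TEX19 rose by 1.03 (SE 0.32, adjusted p = 0.027) with decitabine plus panobinostat, a call lost without control replicate 1 (0.96, adjusted p = 0.0814), control replicate 2 (0.81, adjusted p = 0.125), or replicate 2 (0.99, adjusted p = 0.072) or 3 (0.86, adjusted p = 0.111) of the combination. With decitabine plus valproic acid the change was 0.59 (adjusted p = 0.251), and 0.99 (adjusted p = 0.0254) without replicate 1 of that group.

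The other 7 piRNA pathway members were called nowhere. Group means ran from 3.19 to 3.50 for PIWIL1, 3.32 to 3.60 for PIWIL3, 3.26 to 3.39 for TDRD1, 3.09 to 3.29 for TDRD5, 3.38 to 3.54 for TDRD6, 3.35 to 3.67 for TDRD10 and 3.57 to 3.87 for TDRD12. Of these, TDRD12 alone had a group mean above the median of all values, and small changes at such levels are compressed.

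**Figure D2:**
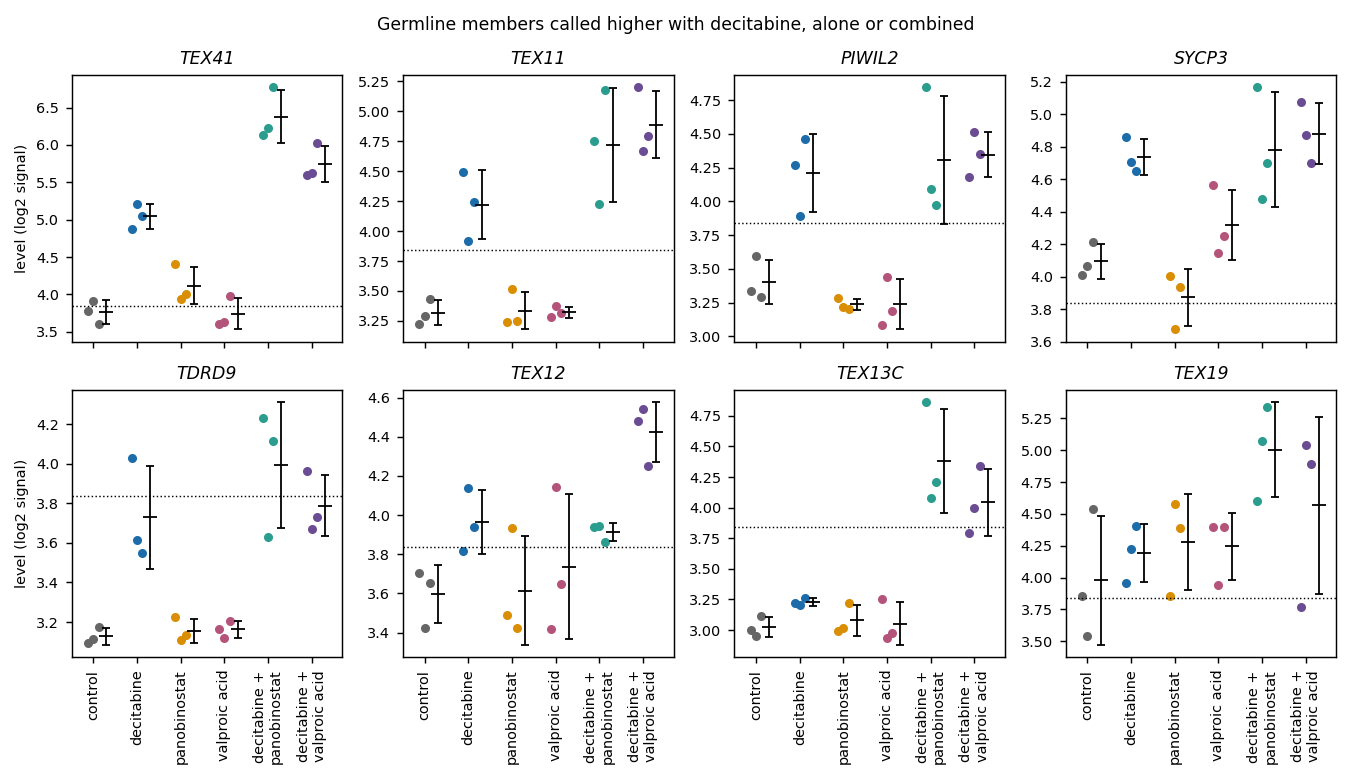
Log2 levels of 8 of the 10 members that rose with decitabine alone or combined, 1 point per array, with group mean and SD (n = 3); the dotted line is the median of all values, 3.84. For PIWIL2, TDRD9 and TEX11 all decitabine arrays stand above all arrays without it, and for TEX41 the arrays of decitabine plus panobinostat (6.13 to 6.78) stand highest.

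Of 10 meiosis members, 6 were called in at least 1 of the 9 comparisons of 2 groups, as were 27 of all 95 members (28.4%) and 32.5% of all genes. TEX11, an X-linked protein of meiotic recombination, read 3.23, 3.29 and 3.43 in control, 4.50, 3.92 and 4.25 with decitabine, 4.75, 4.22 and 5.18 with decitabine plus panobinostat and 5.21, 4.67 and 4.79 in the valproic acid combination. Panobinostat arrays (3.24, 3.52 and 3.25) and valproic acid arrays (3.28, 3.37 and 3.32) stayed with the controls. No array with decitabine overlapped one without. TEX11 rose by 0.90 (SE 0.20, adjusted p = 0.0177) with decitabine, by 1.40 (adjusted p = 9.02e-05) with decitabine plus panobinostat and by 1.57 (adjusted p = 6.49e-05), or 2.97-fold, with decitabine plus valproic acid.

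SYCP3, a structural protein of the chromosome axis in meiosis, rose from 4.01, 4.06 and 4.21 in control to 4.86, 4.70 and 4.65 with decitabine. It read 5.17, 4.48 and 4.70 with decitabine plus panobinostat and 5.07, 4.87 and 4.70 in the valproic acid combination. With panobinostat alone it read 4.0, 3.67 and 3.94, and with valproic acid alone 4.56, 4.14 and 4.25. The decitabine arrays were all above the controls, while the highest valproic acid array came above 1 array of decitabine plus panobinostat. The changes from control were 0.64 (SE 0.16, adjusted p = 0.0372), 0.69 (adjusted p = 0.00545) and 0.79 (adjusted p = 0.00324). Against valproic acid alone its combination differed by 0.56 (adjusted p = 0.0717), which was not called.

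TEX12, a protein of the central element of the synaptonemal complex, was at 3.70, 3.43 and 3.66 in control and at 4.48, 4.54 and 4.25 with decitabine plus valproic acid. It rose there by 0.83 (SE 0.17, adjusted p = 0.00294) and by 0.69 (adjusted p = 0.0322) against valproic acid alone, the latter a call kept in 10 of 16 alternatives. With decitabine alone it changed by 0.37 (adjusted p = 0.293) and with decitabine plus panobinostat by 0.32 (adjusted p = 0.22), neither called. Its partner in that element, SYCE2, changed by 0.71 with panobinostat (adjusted p = 0.0481), from a control mean of 5.03. That call was kept under 4 of 16 alternatives.

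SYCP2, which binds SYCP3 in the chromosome axis, did not rise with its partner. Its arrays read 4.60, 4.43 and 4.22 in control and 4.18, 4.39 and 4.85 with decitabine, and these overlapped. With panobinostat it fell by 0.53 (SE 0.15, adjusted p = 0.0432), to 3.92, 3.91 and 3.82. The related SYCP2L, an oocyte protein, fell by 0.42 with decitabine plus panobinostat (adjusted p = 0.0221). The remaining meiosis members were not called, with group means of 3.49 to 3.68 for SYCP1, 3.42 to 3.76 for SYCE1L and 3.33 to 3.70 for SYCE3; SPATA22, which acts in meiotic recombination, had a control mean of 3.58.

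TEX13C, an X-linked member of the TEX13 family, was called in the combinations and in no single treatment. Its levels were 3.00, 2.95 and 3.11 in control, 3.22, 3.20 and 3.26 with decitabine, 3.00, 3.02 and 3.22 with panobinostat and 3.25, 2.93 and 2.97 with valproic acid. They were 4.86, 4.08 and 4.21 with decitabine plus panobinostat and 3.79, 4.0 and 4.34 in the valproic acid combination. The 6 combination arrays were all above the 12 others. TEX13C rose against control by 1.36 (SE 0.18, adjusted p = 3.23e-05), or 2.57-fold, with decitabine plus panobinostat and by 1.02 (adjusted p = 0.000753) in the valproic acid combination. Against decitabine alone the rises were 1.15 (adjusted p = 0.000345) and 0.81 (adjusted p = 0.0126). With decitabine alone it changed by 0.21 (adjusted p = 0.631).

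Whether a combination differed from the sum of its agents was tested as an interaction, the combined change minus both single changes on the log2 scale. No member was called in either interaction, against 0.625% of all genes with panobinostat and 0.0605% with valproic acid. At an unadjusted p under 0.05, limma gave 12 members (12.6%, against 10.5% of all genes) and 5 (5.26%, against 7.72%). TEX13C came nearest with panobinostat, at 1.09 (SE 0.25, 95% interval 0.57 to 1.62, adjusted p = 0.0626), and it was called with an intensity trend, with array weights or without replicate 2 of decitabine plus panobinostat. With valproic acid its interaction was 0.78 (95% interval 0.26 to 1.31, adjusted p = 0.348). The next in the panobinostat interaction were TEX41 at 0.99 (adjusted p = 0.118) and SPATA6 at -1.26 (SE 0.34, adjusted p = 0.131).

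**Figure D3:**
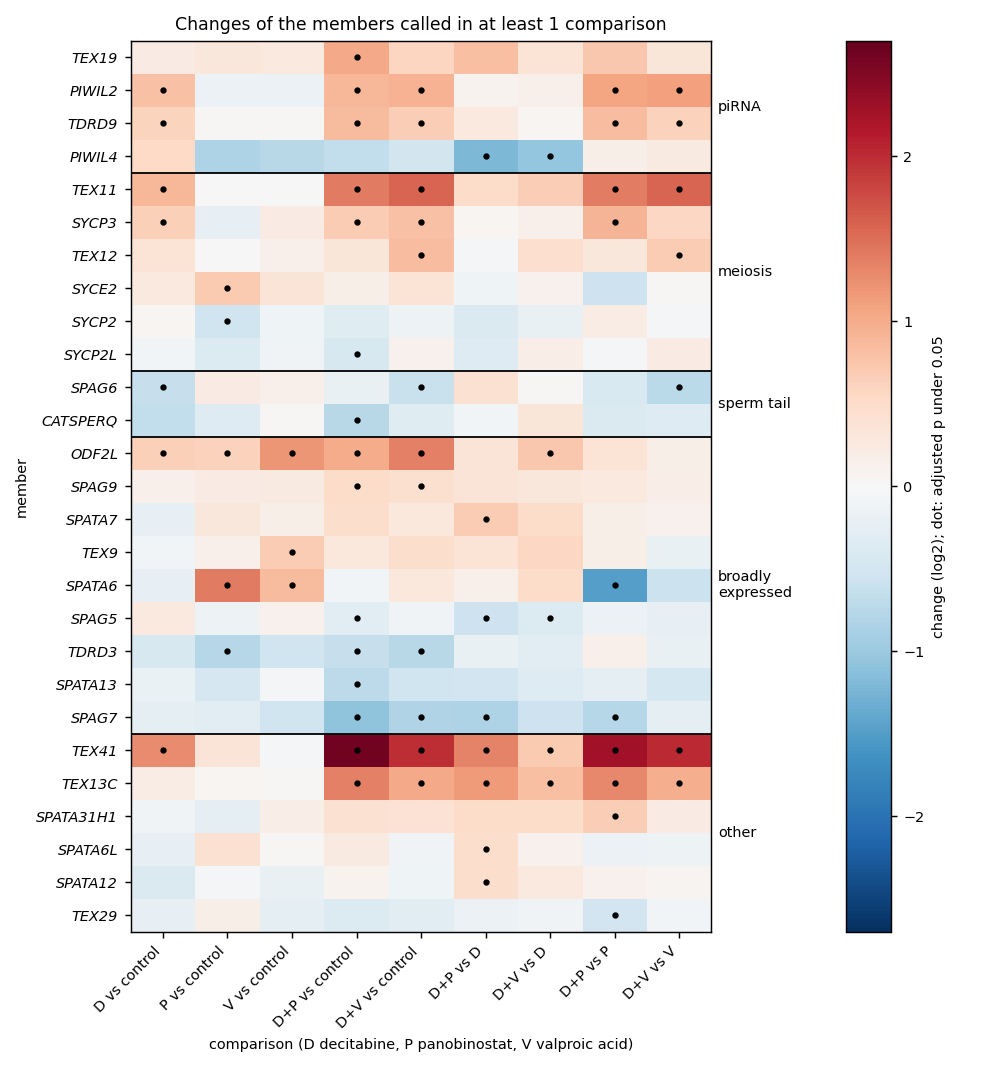
Log2 change (colour) of the 27 members called in at least 1 comparison, in rows grouped by role, over the 9 comparisons of 2 groups in columns; a dot marks a call (limma, adjusted p under 0.05, n = 3 a group). TEX41, TEX11, PIWIL2, SYCP3, TDRD9 and ODF2L are called higher in all 3 groups with decitabine against control. ODF2L (0.63 and 1.20) and SPATA6 (1.41 and 0.86) are called higher with each inhibitor alone.

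None of the members that belong to the sperm tail, cilia and the calcium channel was called higher. Of 15, SPAG6 and CATSPERQ were called, and both fell. Over all genes 32.5% were called in at least 1 comparison of 2 groups. For 12 of the 15 the control mean lay below the median of all values, where changes are compressed. SPAG6, a protein of the central pair of the axoneme, was bright, at 9.97, 10.16 and 9.98 in control and 9.59, 9.32 and 9.33 with decitabine. It fell by 0.62 (SE 0.14, adjusted p = 0.0177) with decitabine and by 0.60 (adjusted p = 0.00684) with decitabine plus valproic acid, where it read 9.72, 9.38 and 9.22. In decitabine plus panobinostat it read 9.86, 9.98 and 9.68 and was not called. CATSPERQ, named as a subunit of the calcium channel, fell by 0.74 (SE 0.20, adjusted p = 0.0144) with decitabine plus panobinostat. The 13 others had group means of 3.17 to 4.10. None of the 4 sperm kinases was called, a number too small to set against the share of all genes. Their group means lay between 3.38 and 4.13, and near-identical copies such as those of TSSK1B may share probes.

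Members known to be broadly expressed gave 9 of the 27 called genes, from 18 members, while 32.5% of all genes were called. Of these 18 members, 1 had a control mean below the median of all values. The part of signal level in this count was not tested. SPATA6, a protein of the neck of the sperm tail, rose with each inhibitor given alone and was not called against control in the combinations. Its levels were 5.53, 5.81 and 6.38 in control, 7.70, 6.94 and 7.30 with panobinostat and 7.01, 6.49 and 6.79 with valproic acid. They were 5.57, 6.07 and 5.43 with decitabine, 5.75, 5.98 and 5.79 with decitabine plus panobinostat and 5.91, 6.09 and 6.55 in the valproic acid combination. The panobinostat arrays were above all 9 arrays with decitabine. SPATA6 rose by 1.41 (SE 0.24, adjusted p = 0.00163), or 2.66-fold, with panobinostat and by 0.86 (adjusted p = 0.0407) with valproic acid. With decitabine added to panobinostat it fell by 1.48 (adjusted p = 0.00093), and with decitabine added to valproic acid it changed by -0.58 (adjusted p = 0.24).

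ODF2L, a relative of the centrosome and sperm tail protein ODF2, rose in all 5 treatments. Its levels were 6.58, 6.64 and 6.31 in control, 7.38, 6.84 and 7.23 with decitabine, 7.31, 7.20 and 6.91 with panobinostat, 8.06, 7.56 and 7.49 with valproic acid, 7.62, 7.63 and 7.28 with decitabine plus panobinostat and 7.81, 7.84 and 7.97 in the valproic acid combination. Every treated array was above every control array. The changes were 0.64 (SE 0.17, adjusted p = 0.0477) with decitabine, 0.63 (adjusted p = 0.0349) with panobinostat, 1.20 (adjusted p = 0.000523) with valproic acid, 1.00 (adjusted p = 0.000433) with decitabine plus panobinostat and 1.36 (adjusted p = 5.64e-05) in the valproic acid combination.

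SPAG7 fell in both combinations. It read 6.37, 6.40 and 6.49 in control, 6.13, 6.07 and 6.35 with decitabine, 6.03, 5.97 and 6.33 with panobinostat and 6.15, 6.06 and 5.41 with valproic acid. With decitabine plus panobinostat it read 4.97, 5.45 and 5.59 and with decitabine plus valproic acid 5.55, 5.69 and 5.60. The 6 combination arrays lay below every control array. It fell by 1.08 (SE 0.18, adjusted p = 0.000365) in the first and by 0.81 (adjusted p = 0.00584) in the second. TDRD3, a Tudor protein that reads methylated arginine and works with a topoisomerase, fell by 0.76 (SE 0.19, adjusted p = 0.0232) with panobinostat, 0.63 (adjusted p = 0.0267) with decitabine plus panobinostat and 0.75 (adjusted p = 0.0136) in the valproic acid combination.

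Other broadly expressed members moved by less than 1. SPAG5, a protein of the mitotic spindle, fell against decitabine by 0.55 with panobinostat added (SE 0.09, adjusted p = 0.000683) and by 0.37 with valproic acid added (adjusted p = 0.0267). SPAG9, a scaffold of JNK signalling, rose by 0.49 (adjusted p = 0.0195) and 0.44 (adjusted p = 0.046) in the combinations against control. The second call was kept in 6 of 16 alternatives, and without replicate 1 of that combination the change was 0.38 (adjusted p = 0.131). SPATA13 fell by 0.71 with decitabine plus panobinostat (adjusted p = 0.00904). TEX9 rose by 0.68 with valproic acid (adjusted p = 0.0451), and SPATA7, a protein of the photoreceptor cilium, by 0.69 in decitabine plus panobinostat against decitabine (adjusted p = 0.0416).

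**Figure D4:**
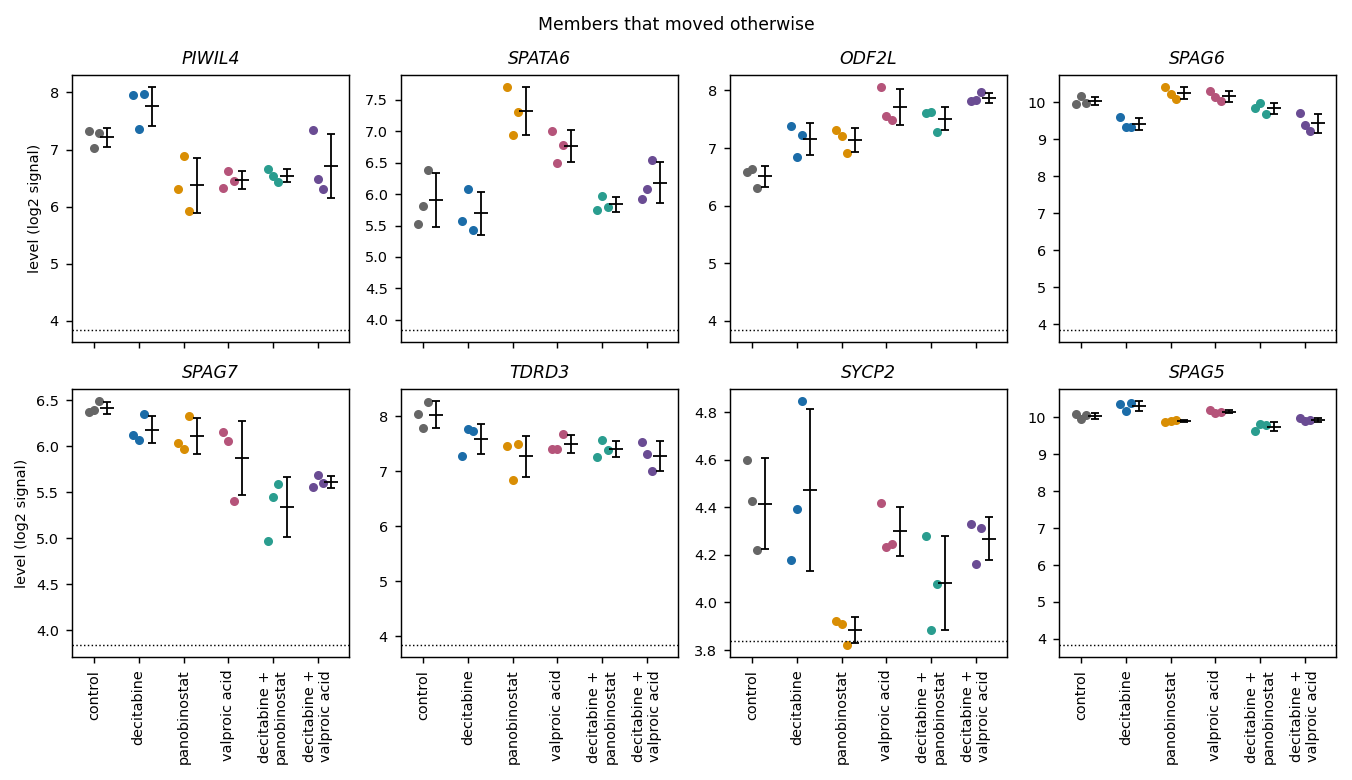
Log2 levels of 8 members with other courses, 1 point per array, with group mean and SD (n = 3); the dotted line is the median of all values, 3.84, and the axes differ between panels. By group mean SPATA6 is highest with panobinostat alone (arrays 6.94 to 7.70) and SPAG7 lowest in the combinations, where 1 array of valproic acid alone overlaps them. ODF2L is above the controls in all treatments.

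The combinations were also set against each of their agents. Against decitabine alone, decitabine plus panobinostat raised 5 members (5.26%, against 7.66% of all genes) and lowered 3 (3.16%, against 7.91%). Those that rose were TEX41, TEX13C, SPATA7, SPATA12 (by 0.48) and SPATA6L (by 0.47), and those that fell were PIWIL4, SPAG7 and SPAG5. Decitabine plus valproic acid against decitabine raised TEX41, TEX13C and ODF2L (3.16%, against 3.57%) and lowered PIWIL4 and SPAG5 (2.11%, against 2.57%). Without replicate 1 of that combination TEX9 was also called higher (0.72, adjusted p = 0.0451), against 0.56 (adjusted p = 0.108) with it. That count of 5 was 2 without decitabine replicate 1, 1 without decitabine replicate 3 or replicate 2 of the combination, and 0 without replicate 3 of the combination. The shares of all genes in those fits are not given. With all arrays the shares of members were at or below those of all genes in both comparisons.

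Setting a combination against its inhibitor alone asks what decitabine added. With panobinostat, 7 members rose (7.37%, against 5.42% of all genes) and 3 fell (3.16%, against 4.13%). TEX41 rose by 2.26 (adjusted p = 5.8e-07), TEX11 by 1.38 (adjusted p = 0.000394), TEX13C by 1.30 (adjusted p = 0.000179), SYCP3 by 0.91 (adjusted p = 0.00197) and TDRD9 by 0.84 (adjusted p = 0.00172), beside PIWIL2 and SPATA31H1 (0.66, adjusted p = 0.0175). SPATA31H1 has 2 probe sets, and it was not called on their mean. SPATA6 fell as given above, SPAG7 fell by 0.77 (adjusted p = 0.013) and TEX29 by 0.53 (adjusted p = 0.0399). With valproic acid, 6 rose (6.32%, against 2.63%) and SPAG6 fell (1.05%, against 1.4%). The 6 were TEX41 at 2.01 (adjusted p = 3.13e-06), TEX11 at 1.57 (adjusted p = 0.000178), PIWIL2 at 1.11, TEX13C at 0.99 (adjusted p = 0.0031), TEX12 at 0.69 and TDRD9 at 0.62 (adjusted p = 0.0251). Without replicate 1 of the combination TEX12 (0.66, adjusted p = 0.0823) and TDRD9 (0.54, adjusted p = 0.0897) were not called. At an unadjusted p under 0.05, limma gave 18 members (18.9%, against 21.5% of all genes) in the comparison with panobinostat alone. In that with valproic acid alone it gave 11 (11.6%, against 15.9%).

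**Figure D5:**
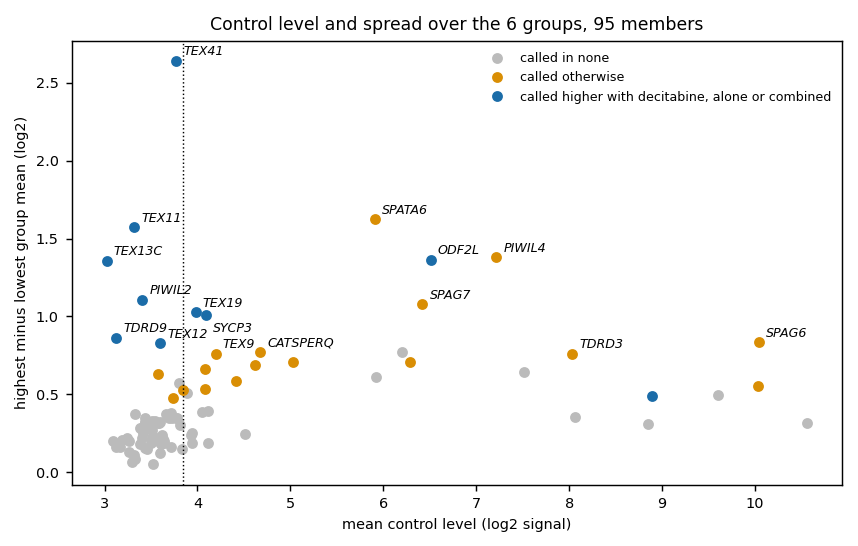
Control mean (log2) of each of the 95 members against its range over the 6 group means (log2 difference), coloured by whether the gene was called; the dotted line marks the median of all values, 3.84. Most members cluster at low control levels and small ranges, with TEX41 at the top of the plot.

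The remaining 68 members were called in none of the 9 comparisons of 2 groups. The difference between their highest and lowest group mean had a median of 0.25 and was at most 0.77 (TEX264, which acts in autophagy of the endoplasmic reticulum). Of these, 45 had every group mean below the median of all values, and 7 had a control mean above the upper quartile. Differences of dim members are understated at this signal. Of the 61 members with a control mean below the median of all values, 8 were called. Among all 95 members 27 were called, and 32.5% of all genes were. The share of all dim genes called was not counted. The absence of the other dim members from the calls does not show that they were constant.

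Genes of the same processes that carry other names were counted in the same comparisons. All these lists were chosen with earlier results of these data known, so their counts are not an independent test. Of 12 measured piRNA partners, 2 rose with decitabine, 1 with each inhibitor alone, 4 with decitabine plus panobinostat and 3 in the valproic acid combination, and none fell. Over all genes 2.57% rose with decitabine, 3.92% with panobinostat, 4.73% with valproic acid, 11.2% and 8.9% in the combinations. In the same order 1.39%, 3.47%, 2.74%, 12% and 8.06% of all genes fell. MAEL, which acts in transposon silencing, rose by 3.54 (SE 0.25), 3.96 and 4.48 in the 3 decitabine groups, and DAZL, which binds germ cell messenger RNAs, by 2.25, 3.20 and 2.92. TDRKH, a Tudor protein that anchors PIWI proteins at mitochondria, rose with panobinostat (0.86), valproic acid (1.15) and both combinations (1.25 and 1.16). RNF17 rose by 0.41 with decitabine plus panobinostat. MAEL and DAZL belong to a germ line response of these arrays that was already known when the lists were made.

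Of 19 measured meiotic partners, 2 rose with decitabine, against 2.57% of all genes, and none was called with either inhibitor alone, a number too small to set against the 3.92% and 4.73% of all genes that rose. HORMAD1, of the meiotic chromosome axis, rose by 3.48, 3.04 and 3.30 in the 3 decitabine groups, and the meiotic cohesin subunit STAG3 by 1.42, 1.70 and 1.85. With decitabine plus panobinostat 5 rose and 2 fell, against 11.2% and 12% of all genes. With decitabine plus valproic acid 3 rose and 1 fell, against 8.9% and 8.06%. REC8, another cohesin subunit, rose by 0.99 with decitabine plus panobinostat, while MND1, a recombination factor, fell by 1.25 and 0.74 in the combinations. Of 22 measured genes of sperm structure outside the families, none was called with decitabine and 1 rose in each of the other treatments against control. The shares of all genes that rose there were 3.92% with panobinostat, 4.73% with valproic acid, and 11.2% and 8.9% in the combinations. SPA17 rose by 1.13 with decitabine plus panobinostat and AKAP3, a scaffold of the fibrous sheath, by 0.79 with panobinostat.

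Of 14 measured regulators of germ line genes, 1 rose with decitabine, against 2.57% of all genes. It was DNMT3B, a DNA methyltransferase, which rose by 0.82, and by 1.23 and 1.40 in the combinations. TFDP1, the dimer partner of E2F factors, fell by 0.95 with panobinostat, 1.66 with decitabine plus panobinostat and 0.79 in the valproic acid combination. PCGF6 and L3MBTL2, Polycomb proteins of this list, fell by 0.83 and 0.76 with decitabine plus panobinostat. RYBP, a Polycomb protein of the same list, rose by 0.69 there (adjusted p = 0.000152), by 0.46 with panobinostat, by 0.57 with valproic acid and by 0.61 in the other combination. With decitabine plus panobinostat 2 regulators rose and 3 fell, against 11.2% and 12% of all genes. With decitabine plus valproic acid 3 rose and 1 fell, against 8.9% and 8.06%. A list of 14 genes is too small for a close comparison with these shares.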

How the data were processed

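The authors deposited log2 signals per probe set made with RMA, per the submitters' processing notes; its version is not given in the sources used here. Of 48226 probe sets, 16098 had 1 symbol, 0 several and 32128 none. The probe set with the highest mean stood for each of 14884 genes; 3 members had more than 1. Symbols were checked by gene identifier against RefSeq. No gene was filtered by level.

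A model with 1 mean per group was fitted to all 18 arrays with limma 3.58.1 in R 4.3.3 (12 residual degrees of freedom), with 9 comparisons of 2 groups and 2 interactions, each adjusted over all genes. The code was tested on simulated data. Alternatives changed the arrays fitted, probe sets, normalization, weights and variance trend, blocked by replicate number, or left out each array.

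Members called with a change of at least 1 are given in full and other called ones with their change; PIWIL, SYCP, SYCE and TDRD genes are named whether called or not, and of each partner list up to 6 called genes. The members and lists were chosen with earlier results of these data known. A single symbol that matches the rule is not reported here.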

Additional observations from a re-analysis of the deposited data

How the results depend on the processing

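Of 72 calls of a member in a comparison, 37 held under all 16 alternatives tried for each, and none of the 25 changes of at least 1, in 9 genes, reversed. Counts of called members moved as follows, the causes not being tested and the shares of all genes in the same fits not being given. For panobinostat against control (5 members) the count was 2 with only the compared groups fitted, 3 over all probe sets and 3 with the replicate block. For valproic acid against control (3) it was 1 over all probe sets, 1 with the replicate block and 1 after quantile normalization of the named genes. For decitabine plus valproic acid it was 0 against decitabine (5) and 4 against valproic acid (7) with only the compared groups fitted, which leaves fewer arrays to estimate the spread. In the interaction with panobinostat (0) it was 1 with an intensity trend and 1 with array weights. Leaving out 1 array gave 2 to 5 members for decitabine (7), 2 to 3 for panobinostat, 1 to 2 for valproic acid, 0 to 6 for decitabine plus valproic acid against decitabine and 0 to 1 for the interaction with panobinostat. Arrays with the same replicate number correlated at -0.108 to 0.104 in their deviations, so the numbers were not taken as pairs. A filter on dim probe sets kept 10837 genes and 50 members. Signals of dim members are compressed near the background, which limits what can be seen of them.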
